A study of Mus musculus with 51 samples.

Results

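H3K27ac peaks at mouse promoters that were called in early astrocytes and overlapped no such peak of an earlier or later stage of astroglial differentiation were examined. Mouse embryonic stem cells of C57/BL-6 background were turned into astrogliogenic neural precursor cells (aNPC), grown with N2, EGF and FGF-2, and these into astrocytes in DMEM with 1% FBS and LIF. Cells were profiled by ChIP-seq as aNPC, as early astrocytes after 1 day (eA) and as late astrocytes after 5 days (lA), for the histone marks H3K27ac and H3K4me1. Libraries with siRNA were not used, and each stage and mark is represented by 1 peak list called on 2 merged replicates. The peaks were chosen from their own H3K27ac calls: an eA peak on chromosomes 1 to 19 that overlapped no aNPC and no lA peak by 1 bp or more, with its centre within 1 kb of a coding start site. This gave 1578 peaks among 81348 eA peaks, and they lay nearest to start sites of 1383 genes. In all, 14383 eA peaks (17.7%) overlapped no peak of the other stages, but at promoters this held for 8.97% of 17596 peaks, so the remaining 16018 eA promoter peaks were shared with aNPC, with lA or with both. Because H3K27ac chose these peaks, every H3K27ac value below is a description without a test.

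H3K27ac is laid down at active promoters and enhancers, where acetylation of the histone tail goes with open chromatin. At an active promoter the nucleosome at the start site is usually depleted, and acetylated nucleosomes stand on either side of it, so that a peak list can cut a promoter into pieces. H3K4me1 marks enhancers and also the flanks of active CpG-rich promoters, whose core carries H3K4me3 in its place. A promoter peak seen at 1 stage can therefore be a promoter of its own or a piece at the edge of a promoter that is acetylated throughout, and the neighbourhood of each peak was measured to tell these positions apart.

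The eA-only promoter peaks fell into 3 settings. Beside a shared peak, that is within 1 kb of an eA H3K27ac peak that overlapped both an aNPC and an lA peak, lay 553 of the 1578 (35.0%, 95% Wilson interval 32.7 to 37.4). A further 256 (16.2%) had no such neighbour but lay within 1 kb of an aNPC peak (116), of an lA peak (122) or of each (18). The other 769 (48.7%, interval 46.3 to 51.2) stood apart, with no shared, aNPC or lA peak within 1 kb. Neither description alone covers the group.

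The DNA of 7 peaks shows the kinds of sequence in the 3 settings, read from mm9 on the plus strand as 120 bp near the summit that overlap no annotated exon, with CpG dinucleotides in capitals. Osmr, Gstp1 and Mt2 stood apart and were among the peaks with the highest significance, Rasa2, Tgfb2 and Rpl26 flanked a shared peak, and Ccnb2 lay beside an aNPC peak only. The windows are chr15:6824032-6824151 (intron), chr19:4037743-4037862 (intron), chr8:96696776-96696895 (intron), chr9:96531056-96531175 (intron), chr1:188528104-188528223 (intron), chr11:68716030-68716149 (intron) and chr9:70269578-70269697 (outside genes), in the order printed.
Osmr: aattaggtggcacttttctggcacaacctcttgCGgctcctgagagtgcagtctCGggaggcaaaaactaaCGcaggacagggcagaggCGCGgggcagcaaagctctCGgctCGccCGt
Gstp1: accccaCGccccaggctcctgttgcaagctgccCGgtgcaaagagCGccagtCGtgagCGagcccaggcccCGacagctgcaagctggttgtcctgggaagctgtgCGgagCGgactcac
Mt2: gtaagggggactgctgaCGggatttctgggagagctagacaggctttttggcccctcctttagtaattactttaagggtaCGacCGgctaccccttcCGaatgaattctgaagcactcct
Rasa2: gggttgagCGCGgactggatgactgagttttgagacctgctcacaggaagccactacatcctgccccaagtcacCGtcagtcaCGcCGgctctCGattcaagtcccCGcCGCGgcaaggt
Tgfb2: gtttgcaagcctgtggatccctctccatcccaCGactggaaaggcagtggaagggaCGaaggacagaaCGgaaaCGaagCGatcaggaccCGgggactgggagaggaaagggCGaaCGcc
Rpl26: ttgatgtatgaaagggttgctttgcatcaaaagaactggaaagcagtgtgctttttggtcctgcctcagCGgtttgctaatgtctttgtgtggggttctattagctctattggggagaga
Ccnb2: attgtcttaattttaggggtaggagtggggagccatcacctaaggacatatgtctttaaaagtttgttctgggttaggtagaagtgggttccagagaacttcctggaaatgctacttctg
These windows hold 8, 8, 4, 9, 8, 1 and 0 CpG, in the same order, so that a flanking piece may be CpG-rich (Rasa2) or nearly free of CpG (Rpl26).

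Whether the peaks flank a broader shared promoter peak was measured on the 553 that lay beside one. The shared peak was wider in 525 of them (94.9%) and its own centre was within 1 kb of a start site in 520, and 497 met both conditions, which is 31.5% of all eA-only promoter peaks (interval 29.3 to 33.8). The gap between member and shared peak had a median of 181 bp (quartiles 115 and 328). It was at most 200 bp in 304 and at most 500 bp in 488 of the 553. The shared peak was 777 bp wide at the median against 206 bp for the piece beside it, a median width ratio of 3.70 (quartiles 2.15 and 5.25). The smallest gap was 51 bp, which was also the smallest distance between any neighbouring peaks of the eA list.

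**Figure D1:**
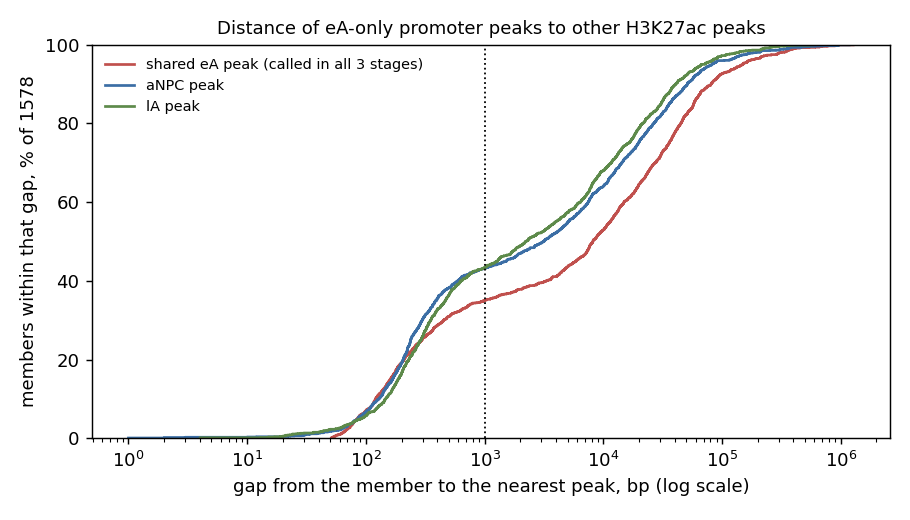
Cumulative share of the 1578 eA-only promoter peaks (vertical axis, percent) within a given gap (horizontal axis, bp, log scale) of the nearest shared eA peak, aNPC peak or lA peak, with gaps under 1 bp drawn at 1 and a dotted line at 1 kb. The curves climb steeply to 35.0% (shared), 43.1% (aNPC) and 43.3% (lA) at 1 kb, flatten, and climb again beyond 5 kb.

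The start site itself lay most often in the shared peak. It lay inside the shared peak in 242 of the 553 (43.8%), in the gap between both peaks in 176 (31.8%), inside the eA-only piece in 53 (9.58%) and elsewhere in 82. Within 2 kb of the 543 start sites concerned, the lists held a median of 1 aNPC, 2 eA and 1 lA peaks. At the median 1273 bp were covered by the eA list, 937 bp by the aNPC list and 853 bp by the lA list. The extra eA peak is the one that the choice of peaks requires, so that the added coverage is no separate finding. In 249 of the 553 an aNPC peak, and in 156 an lA peak, reached closer to the piece than the shared eA peak did. The flanking setting was not limited to eA: 43.8% of 1040 aNPC-only and 34.7% of 677 lA-only promoter peaks lay beside a shared peak, against 12.7% of the 12805 eA-only peaks away from promoters.

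Pieces beside a shared peak and peaks that stood apart took different places around the start site. Of the pieces, 35.6% had their centre more than 500 bp into the gene and 20.8% within the first 400 bp. Of the peaks apart, 9.88% lay more than 500 bp into the gene and 52.3% within the first 400 bp. The corresponding shares of other eA promoter peaks were 17.1% and 37.8%. Counting all settings, 61.5% of eA-only promoter peaks were centred downstream of the start site, near the 64.0% of other eA promoter peaks, whereas 37.8% of aNPC-only and 41.2% of lA-only promoter peaks were. By summit, 659 of the 1578 lay in introns (41.8%), 202 in coding exons, 264 in untranslated exons, 53 in exons of non-coding transcripts and 400 outside genes (25.3%). Other eA promoter peaks had 41.3% in introns and 23.3% outside genes.

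**Figure D2:**
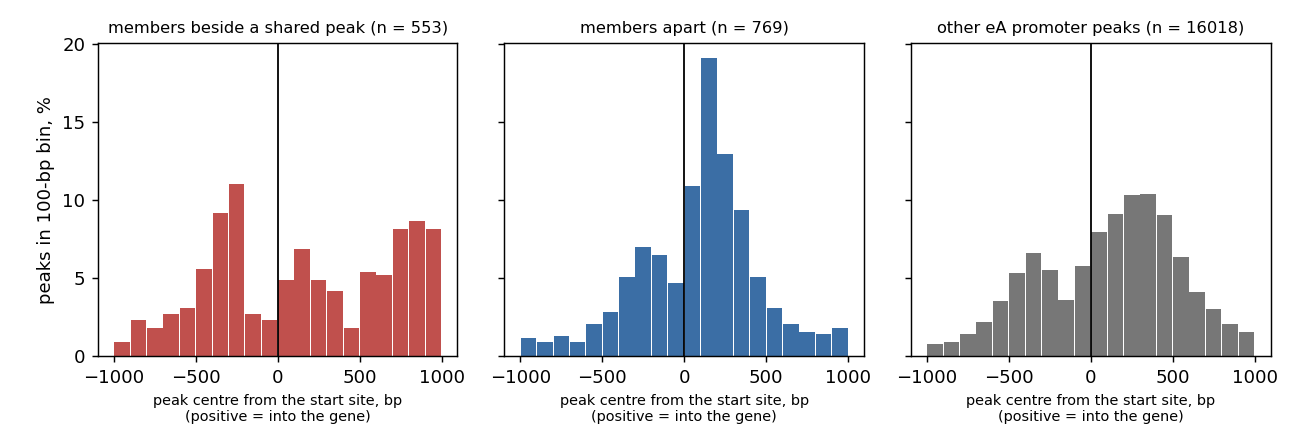
Position of the peak centre relative to the nearest coding start site (horizontal axis, bp, positive into the gene) as percent of peaks per 100-bp bin (vertical axis), for eA-only promoter peaks beside a shared peak (553), those apart (769) and all other eA promoter peaks (16018). Pieces beside a shared peak gather more than 500 bp into the gene and upstream of the start site, and peaks apart gather within 400 bp downstream.

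The eA-only promoter peaks were narrower and weaker than other eA promoter peaks. Their median width was 226.5 bp (quartiles 168 and 340) against 771 bp for other eA promoter peaks. Their median −log10 q, the significance that MACS2 gave the peak, was 6.39 against 52.5, and the median fold over the local background was 3.59 against 7.09. The eA-only peaks away from promoters were narrower and weaker still, with medians of 192 bp and a −log10 q of 4.95. The median width was 275.5 bp for aNPC-only and 268 bp for lA-only promoter peaks, which were likewise narrow. A −log10 q of 5 or more was reached by 1114 of the eA-only promoter peaks (70.6%) and by 96.3% of other eA promoter peaks. The start site lay inside the peak in 20.8% of the eA-only and 51.6% of the other eA promoter peaks. The 3 H3K27ac lists differ in the narrowest peak they hold, which spanned 144 bp in the eA list, 178 bp in the aNPC list and 196 bp in the lA list. Of the eA-only promoter peaks 486 (30.8%) were narrower than any aNPC peak and 619 (39.2%) narrower than any lA peak, against 3.55% and 4.81% of other eA promoter peaks. Such a peak had no counterpart of its width that the other lists could hold, though a wider peak of those lists could still overlap it. With all 3 lists limited to H3K27ac peaks of at least 196 bp, 1045 eA peaks met the rule, of which 31.6% lay beside a shared peak. This setting also dropped narrow aNPC peaks, so that some of the 1045 were not among the 1578. The part of the width limit in the choice of peaks was therefore not measured.

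**Figure D3:**
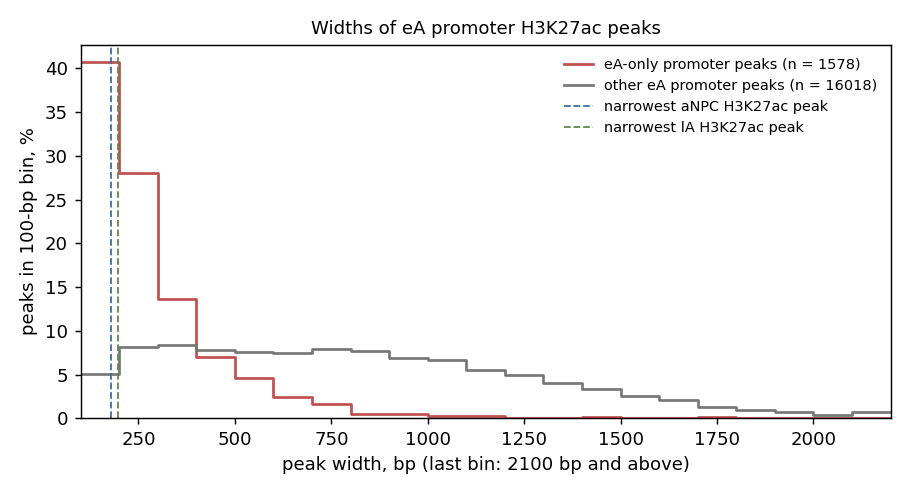
Width (horizontal axis, bp) of the 1578 eA-only promoter peaks and the 16018 other eA promoter peaks as percent per 100-bp bin (vertical axis), with the narrowest aNPC peak (178 bp) and lA peak (196 bp) as dashed lines. Most eA-only promoter peaks lie left of 300 bp, where few other promoter peaks do.

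Few eA-only promoter peaks were both wide and highly significant. Those at least 500 bp wide with a −log10 q of 20 or more numbered 59 (3.74%, against 66.0% of other eA promoter peaks), of which 45 stood apart, 12 lay beside a shared peak and 2 near an aNPC or lA peak only. Of all 1578, 548 (34.7%) had no aNPC or lA H3K27ac peak within 5 kb.

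The gene with the most significant eA-only promoter peak was Pik3c3, which encodes the lipid kinase Vps34 of autophagy. Its peak at chr18:30432495-30433356 was 862 bp wide with a −log10 q of 61.1 and a 13.8-fold enrichment, and the nearest lA peak was 54407 bp away. At Osmr, the oncostatin M receptor subunit that signals together with gp130, the peak at chr15:6823480-6824842 spanned the start site over 1363 bp with a −log10 q of 54.6 and an 8.70-fold enrichment. No aNPC peak lay within 35053 bp of it and no lA peak within 22311 bp. Fsd1 had a 570-bp peak at chr17:56125848-56126417 with a −log10 q of 54.7 and the largest fold of all eA-only promoter peaks, 14.1. These 3 promoters, marked over their start site, had no H3K27ac call for more than 9 kb around in the other stages (the nearest was an lA peak 9466 bp from Fsd1).

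The 8 most significant peaks with no aNPC or lA peak within 5 kb included Pik3c3, Osmr and Fsd1 and also Gstp1, Mt2 and Cdo1. Gstp1, a glutathione S-transferase, had an 1101-bp peak at chr19:4037422-4038522 with a −log10 q of 52.9, 7124 bp from the nearest aNPC peak. Mt2, a metal-binding metallothionein, had a 1462-bp peak at chr8:96696049-96697510 with a −log10 q of 40.9, 5104 bp from the nearest lA peak. Cdo1, cysteine dioxygenase, had a 778-bp peak at chr18:46887509-46888286 with a −log10 q of 36.9. Each of these last 3 covered its start site.

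The rest of these 8 peaks were at 1810063B07Rik (−log10 q 49.4, 984 bp) and Atp8b1 (42.9, 1000 bp), a membrane lipid flippase. Among the 12 most significant peaks, Zfp661 (−log10 q 53.3), a C2H2 zinc finger gene, 4930485B16Rik (49.0), 1300014I06Rik (48.6), Hps6 (46.6), a subunit of a lysosome-related organelle complex, and St3gal3 (42.3), a sialyltransferase, stood between 1006 and 4591 bp from the nearest shared, aNPC or lA peak. Only Rasa2, a Ras GTPase-activating protein, was a flank among these 12. Its 524-bp peak at chr9:96530913-96531436 lay 139 bp from a shared peak 737 bp wide that held the start site, with a −log10 q of 44.6 against 63.3 for the shared peak.

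Flanks of the widest shared peaks were small. At Mxi1, a Max-binding repressor of the Myc network, a 159-bp piece lay 180 bp from a shared peak of 2988 bp, and at Anp32a a 157-bp piece lay 701 bp from a shared peak of 2890 bp. At Tsen34, a subunit of the tRNA splicing endonuclease, pieces of 229 and 147 bp followed a shared peak of 2457 bp at gaps of 245 and 612 bp.

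Most genes had a single eA-only promoter peak: 1205 had 1, 161 had 2 and 17 had 3. Examples with 3 peaks were found at A530095I07Rik, at Ank1, the ankyrin of the membrane skeleton, and at Celf4, a neuronal RNA-binding protein, and all stood apart except 1 at Ank1, which lay 295 bp from an aNPC peak. Around the start site of 534 marked genes (38.6%, interval 36.1 to 41.2) both an aNPC and an lA peak were present within 1 kb. The promoter window of these genes thus held an H3K27ac call at every stage. The aNPC and lA peaks counted here need not overlap each other or a second eA peak. An aNPC peak without an lA peak was found at 109 genes and the reverse at 110, and 1 gene, Mybl2, had one of each at different start sites. Neither was found at 629 (45.5%), of which 115 had such a peak at another coding start site and 514 (37.2% of marked genes) had none at any. Another coding gene started within 1 kb of 80 of the peaks, so the gene named is the nearest and not always the one possible.

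Peaks at the edge of the 1-kb window give the scale of that choice. Just inside it were peaks at Dab2 (centre 1000 bp from the start site) and C1ql1 (995 bp), and just outside were peaks at Bola3 (1000.5 bp) and Klf10 (1005 bp).

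The marked genes were read against lists of pathways and cell types. Among all 21275 genes with a coding start site on chromosomes 1 to 19, 6.50% had an eA-only promoter peak, and 12.3% among the 11236 genes with any eA promoter peak. These are the levels to set beside each list. H3K27ac chose the peaks, the lists were chosen with results of these data known, and no list was tested.

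Of BMP and TGF-beta signalling 7 of 25 genes were marked, the largest share of listed genes. Among genes with any eA promoter peak this was 7 of 23, a smaller share than in the neuronal (3 of 8), pluripotency (1 of 3) and keratin (1 of 1) lists. The 5 most significant are described. The ligands among them were Tgfb1 and Tgfb2. At Tgfb2 a 726-bp piece with a −log10 q of 24.3 lay 130 bp from a shared peak of 1028 bp, whereas the Tgfb1 peak (231 bp) stood apart, 1540 bp from an aNPC peak. The type I receptor gene Bmpr1a had a 192-bp peak apart, 5544 bp from an aNPC peak. Among intracellular members, the inhibitory Smad7 had a 471-bp piece over its start site, 392 bp from a shared peak, and Id4, a BMP-responsive helix-loop-helix inhibitor, had one of 147 bp.

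Of the list of gp130, JAK kinase and Stat3 pathway genes, 2 of 16 were marked. Osmr, the oncostatin M receptor subunit, stood apart as described. The feedback inhibitor Socs1 had a 176-bp piece 96 bp from a shared peak of 1331 bp. The other 14 genes of this list had no eA-only promoter peak.

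Immediate early and AP-1 genes, which respond to growth factors within minutes, had 4 of 27 marked: Fosb, Klf10, Nr4a1 and Nr4a2, the last with 2 peaks. None of the 5 peaks stood apart, whereas 48.7% of all eA-only promoter peaks did. At Klf10 the piece lay 71 bp and at Nr4a1 284 bp from a shared peak, and at Fosb it lay 209 bp from an aNPC peak. Their −log10 q was between 5.82 and 9.62.

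Actin cytoskeleton and adhesion genes had 5 of 25 marked. At Actg1, cytoplasmic gamma-actin, a 306-bp piece with a −log10 q of 21.1 lay 229 bp from a shared peak, and Actb, Actn4 and the matrix protein gene Cyr61 also had pieces beside shared peaks. Itgav, an integrin alpha subunit, had a 267-bp peak apart from others by 10569 bp or more.

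Cell cycle genes had 5 of 36 marked. Each had its peak within 1 kb of an aNPC peak, where 43.1% of all eA-only promoter peaks lay. In 3 of the 5 genes no lA peak was within 1 kb. At the mitotic kinase gene Bub1 the eA piece was 58 bp from an aNPC peak and 21609 bp from the nearest lA peak, at cyclin gene Ccnb2 the distances were 113 and 30867 bp, and at the proliferation marker Mki67 they were 285 and 17672 bp. The lack of overlap with aNPC is part of how the peaks were chosen, and other eA peaks lay 223 bp from the piece at Bub1 and 366 bp from that at Mki67. Cdkn2c, a CDK inhibitor, and Mcm7, of the replicative helicase, had pieces beside shared peaks.

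Histone genes had 10 of 67 marked with 13 peaks, 7 of them beside a shared peak. The histone clusters are dense and their genes similar, so the nearest start site may not be the gene concerned. C2H2 zinc finger genes with Zfp symbols had 27 of 358 (7.54%) and 30 peaks, of which 19 lay beside a shared peak and 10 apart. The most significant were Zfp661, Zfp959 (−log10 q 38.1, 526 bp, 174 bp from an aNPC peak) and Zfp677 (23.0, 441 bp, 38504 bp or more from any shared, aNPC or lA peak).

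**Figure D4:**
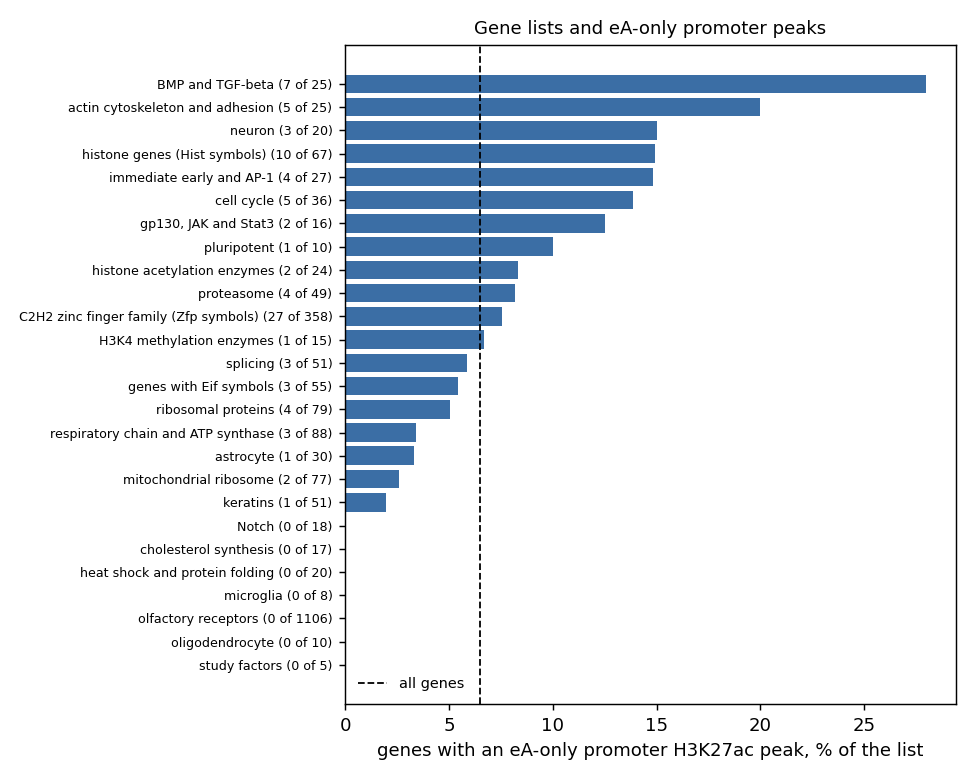
Share of each gene list with an eA-only promoter H3K27ac peak (horizontal axis, percent of the list), with the number marked of the number in the list, and the share of all genes as a dashed line (6.50%). BMP and TGF-beta genes (7 of 25) are at the top, and 7 lists have no marked gene.

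Housekeeping lists lay near the 6.50% of all genes or below, and below the 12.3% when only their genes with an eA promoter peak were counted, with 4 of 73 ribosomal protein, 3 of 51 splicing, 3 of 51 Eif, 2 of 66 mitochondrial ribosome, 3 of 77 respiratory chain and 4 of 42 proteasome genes. Of all their genes, ribosomal protein genes had 4 of 79 marked, splicing genes 3 of 51, genes with Eif symbols, mostly translation initiation factors, 3 of 55 (Eif1, Eif4b and Eif2c4, which encodes an Argonaute protein) and the mitochondrial ribosome 2 of 77, and all 12 of these peaks were beside shared peaks. Beside a shared peak lay 35.0% of all eA-only promoter peaks. At Rpl26, for example, a 248-bp piece centred 969.5 bp into the gene lay 195 bp from a shared peak of 663 bp. Proteasome genes had 4 of 49 and the respiratory chain 3 of 88. Of histone-modifying enzymes, the deacetylase Hdac7 and the acetyltransferase Myst2 were marked among 24 genes of histone acetylation and Setd1b among 15 of H3K4 methylation. No gene was marked among 18 Notch, 17 cholesterol synthesis, 20 heat shock and 5 genes of the transcription factors that the study perturbed or followed. In the same order, 14, 17, 18 and 5 of these genes had an eA promoter peak.

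Of 30 genes of astrocyte identity, 22 had an eA promoter peak and 1, Apoe, the apolipoprotein of glial lipid transport, had an eA-only one (3.33%, against 6.50% of all genes), a count too small to set the list apart. Apoe had 2, of 457 bp over the start site (−log10 q 9.75) and 272 bp upstream (5.80), the nearest lA peak lying 934 bp from the upstream one and no aNPC peak within 4618 bp. Of 14 markers used to check the labels, Gfap, Slc1a3, Slc1a2, Aldoc, Gja1, Sox9, Nfia, Glul, Cd44 and Fabp7 had an H3K27ac peak at the promoter in all 3 stages, so they did not separate astrocytes from aNPC. Aqp4 had one in lA only, S100b in aNPC only, and Aldh1l1 and Gjb6 at no stage.

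Genes of other cell types were marked in small numbers. In the neuronal list they made 15.0% of its genes against 6.50% of all genes, again from a small count. Of 20 neuronal genes, 8 had an eA promoter peak, and Gap43, Mtap2 and Rbfox3 were marked: Rbfox3, which encodes the nuclear marker NeuN, had 3 peaks with a −log10 q of 9.40, 7.76 and 2.55, all 32178 bp or more from any aNPC or lA peak, and Mtap2 had a flank 77 bp from a shared peak. At Gap43 the eA piece of 1166 bp lay 458 bp from an lA peak. Of 10 pluripotency genes 1 was marked and of 51 keratin genes 1. Sox2 had a 151-bp piece beside a shared peak of 1420 bp and Krt8 a 656-bp peak 179 bp from an lA peak. None of 10 oligodendrocyte and 8 microglial genes was marked, and of 1106 olfactory receptor genes, mostly silent outside the nose, none was. An eA promoter peak of any kind was present at 3, 1 and 3 of these genes, so that few could be marked. At the markers used to check the labels, promoter peaks were found in aNPC, eA and lA at 4, 4 and 2 of 8 neuronal, 3, 3 and 3 of 8 oligodendrocyte, 1, 1 and 1 of 6 microglial and 2, 2 and 1 of 6 pluripotency genes. The part of other cells in the eA-only peaks was not tested.

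H3K4me1 was not used in choosing the peaks and could be tested. In all tests peaks were the units, which are not replicates of a stage and lie partly next to each other, so that p-values and intervals cover counting over peaks only. Of the 1578 eA-only promoter peaks, 79.4% overlapped an H3K4me1 peak of aNPC, 76.3% of eA and 72.8% of lA. For comparison, H3K4me1 of aNPC, eA and lA met 79.5%, 86.8% and 83.7% of all eA H3K27ac peaks on chromosomes 1 to 19. Most of the eA-only promoter peaks, 1035 (65.6%), met H3K4me1 at all 3 stages and 225 (14.3%) at none, and 23 met it in eA alone. The aNPC share of these peaks was at the level of all eA H3K27ac peaks.

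Fewer of these peaks met H3K4me1 in the list of each later stage. The tests compare 1 merged list with another over the same peaks, so they hold for these lists and not for the stages. Between the aNPC and eA lists 65 peaks gained and 114 lost an overlap, a difference of −3.11 points (two-sided exact McNemar test, adjusted p = 0.000555 over 9 tests), which missed the threshold with promoters from 1 kb upstream to 100 bp downstream (−2.60 points, adjusted p = 0.0565). By setting, which was not tested, the lower count was in the pieces beside a shared peak, of which 404 of 553 met H3K4me1 in aNPC and 350 in eA, whereas the counts were 661 and 658 of 769 for peaks apart and 188 and 196 of 256 for peaks near an aNPC or lA peak only. All eA H3K27ac peaks went the other way between these lists, from 79.5% to 86.8%. Between the eA and lA lists 72 gained and 127 lost (−3.49 points, exact adjusted p = 0.000265), which missed it among peaks 500 bp to 1 kb from the start site (−1.92 points), and between aNPC and lA 77 gained and 181 lost (−6.59 points, adjusted p = 3.60e-10). Other eA promoter peaks also had lower shares in later lists, with 84.0%, 78.8% and 74.0% by overlap and 44.5%, 39.9% and 33.3% by summit. The eA-only peaks away from promoters instead had 58.0% with aNPC H3K4me1, 73.4% with that of eA and 68.8% with that of lA. Between the aNPC and eA lists 2547 of these peaks away from promoters gained and 576 lost an overlap. This contrast with the promoter peaks is given as a description.

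Pieces beside a shared peak met H3K4me1 of eA less often than the other eA-only promoter peaks. In eA, 63.3% of pieces beside a shared peak met an H3K4me1 peak (interval 59.2 to 67.2) against 83.3% of the other eA-only promoter peaks (80.9 to 85.5), a difference of −20.0 points (two-sided exact Fisher test, odds ratio 0.345, adjusted p = 2.26e-17 over 9 tests). Peaks that stood apart had 86.0%, 85.6% and 81.8% in aNPC, eA and lA, peaks near an aNPC or lA peak only had 73.4%, 76.6% and 73.0%, and pieces beside a shared peak had 73.1%, 63.3% and 60.2%. With the aNPC list the pieces and the peaks near an aNPC or lA peak only were thus at the same level. Examples apart with H3K4me1 at every stage were Pik3c3, Fsd1, Osmr, Gstp1, Mt2 and Cdo1. Rasa2 had it in aNPC and eA, and 4930485B16Rik in aNPC alone. The flanks at Sox2, Klf10, Mtap2, Smad7 and Actg1 met no H3K4me1 peak at any stage.

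**Figure D5:**
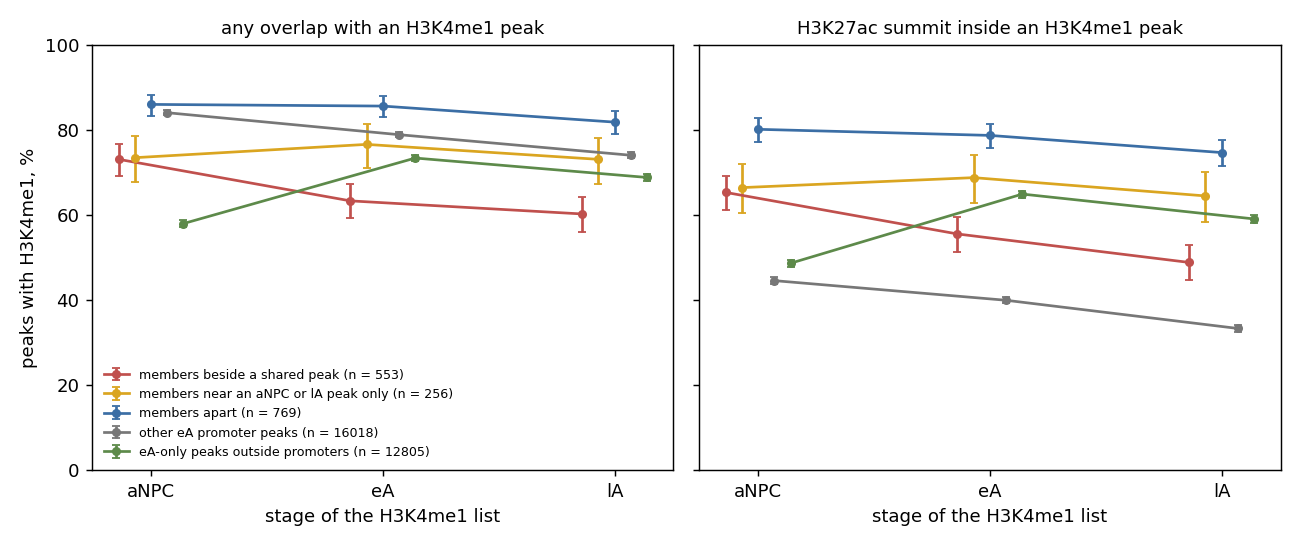
Percent of peaks (vertical axis) with H3K4me1 in the aNPC, eA and lA lists (horizontal axis), by any overlap (left) and by the H3K27ac summit lying inside an H3K4me1 peak (right), with 95% Wilson intervals as bars. Peaks apart are highest in both panels, pieces beside a shared peak decline from 73.1% to 60.2% on the left, and other eA promoter peaks drop from second place on the left to the lowest on the right.

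Whether eA-only promoter peaks had less H3K4me1 than other eA promoter peaks depended on how contact was counted. By any overlap the shares were lower in aNPC (79.4% against 84.0%, two-sided exact Fisher test, adjusted p = 1.48e-05 over 9 tests) and in eA (76.3% against 78.8%, adjusted p = 0.0307), and in lA no difference passed the threshold (72.8% against 74.0%, adjusted p = 0.345), though one did with promoters ending 100 bp downstream (−5.75 points, adjusted p = 0.00133). By the position of the H3K27ac summit, which a wide peak cannot satisfy with its edges, the order turned. It was met by 72.7% of eA-only and 44.5% of other promoter peaks with the aNPC list (exact Fisher test, adjusted p = 5.12e-103), by 68.9% and 39.9% with the eA list (p = 2.70e-108) and by 63.9% and 33.3% with the lA list (p = 3.72e-122). The overlap differences also lost their call when H3K27ac peaks under 196 bp were left out (−1.26 points in aNPC and 0.12 in eA). Width differs between the groups. By overlap, the share in eA was 80.9% for eA-only promoter peaks centred within 250 bp of the start site, 75.2% from 250 to 500 bp, 69.5% from 500 to 750 bp and 72.6% from 750 to 1000 bp. By summit these shares were 73.3%, 67.2%, 61.9% and 67.4%.

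Stage-only promoter peaks of the other lists were compared by H3K4me1 of their own stage. The share was 75.4% for aNPC-only peaks, against 76.3% for eA-only peaks with eA H3K4me1 (two-sided exact Fisher test, difference 0.91 points, adjusted p = 0.607 over 9 tests), and 80.1% for lA-only peaks (difference −3.76 points, adjusted p = 0.0699). Both differences rested on the setting. The first turned negative under 7 others and passed the threshold among peaks 500 bp to 1 kb from the start site (−6.78 points, exact Fisher test, adjusted p = 0.0381). The second passed the threshold, with the eA-only share lower, under 6 others, came to −0.25 with aNPC and lA peaks extended by 200 bp, −0.12 without peaks under 196 bp and −0.18 by summit, and was 1.15 with H3K4me1 lists of equal length. At the stage before their own, 71.2% of lA-only promoter peaks met H3K4me1 (of eA) and 79.4% of eA-only promoter peaks did (of aNPC), and with aNPC H3K4me1 the lA-only share was 53.3%. These shares were not tested against each other.

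Peaks that stood apart were richer in GC and CpG than the other members. In 200 bp around the summit, peaks apart had a median GC content of 62.5%, the same as other eA promoter peaks, whereas pieces beside a shared peak had 50.5% and the 539 shared peaks next to them 64.0%. Windows with at least 55% GC and an observed over expected CpG ratio of at least 0.6 made up 50.2% of peaks apart (interval 46.7 to 53.7), 22.2% of pieces (18.97 to 25.9), 26.95% of peaks near an aNPC or lA peak only (21.9 to 32.7, median GC content 53.5%), 61.2% of the shared peaks and 56.1% of other eA promoter peaks. Among eA-only peaks away from promoters 1.38% were of this kind, with a median GC content of 47.0%.

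In the same 200 bp 11 motifs were searched on both strands, and a match is only a description of letters. The NF1 half-site is part of some full NF1 sites and can overlap a CCAAT box. The AP-1 motif TGANTCA was in 3.93% of eA-only promoter peaks (interval 3.08 to 5.00) against 2.70% of other eA promoter peaks, 7.43% of eA-only peaks away from promoters and 3.89% of 200-bp windows at all coding start sites. STAT letters TTCNNNGAA were in 4.56% against 3.85%, 6.64% and 4.61%, and the RUNX letters TGTGGT in 8.56% against 7.45%, 14.2% and 9.88%. The NF1 half-site TTGGCA was in 8.56% against 6.61%, 13.9% and 7.65%, and the full palindromic NF1 site in 0 of 1578. The GC box GGGCGG was in 31.6% of peaks apart and 15.9% of pieces beside a shared peak, 31.4% of other eA promoter peaks and 38.9% of windows at all coding start sites. Between peaks apart and pieces the CCAAT box letters CCAAT went the other way, with 12.7%, 23.3%, 13.1% and 24.2% in the same order. So did the TATA letters TATAAA with 3.38%, 8.68%, 2.76% and 6.68%. The ETS letters CCGGAAGT (0.44%), the CRE TGACGTCA (0.13%) and the NRF1 site (0 of 1578) were rare. The CRE, ETS and NRF1 letters were in 1.64%, 3.78% and 0.90% of windows at all coding start sites, where other eA promoter peaks, whose summits also lie off the start site, had 0.21%, 0.64% and 0.12%.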

How the data were processed

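H3K27ac and H3K4me1 ChIP-seq of aNPC, eA and lA was analysed as 6 deposited peak lists. The authors aligned the reads uniquely to mm9 with Bowtie, merged 2 replicates per stage and mark with SAMtools, and ran MACS2 on the merged alignments at default settings and without an input control. The deposited fold of a peak is its enrichment over the local background, the deposited −log10 value is that of the q-value, and the deposited summit is an offset from the peak start. Replicates were merged before peak calling and the depth of the merged libraries is unknown here, so no error between cultures could be given, and the fold and −log10 q were compared only within a list.

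Start sites were those of 46028 protein-coding transcripts of GENCODE M1 (mm9), of which the nearest to the peak centre named the gene. Sequences were read from the mm9 genome. Shares carry 95% Wilson intervals. H3K4me1 shares were compared by two-sided exact Fisher and McNemar tests, with p-values adjusted over 9 tests by Benjamini and Hochberg at a threshold of 0.05. The tests were tried on simulated overlaps with known differences. These were drawn independently for each peak and list, which the observed overlaps are not. The genes named are the 12 most significant members, the 8 most significant with a −log10 q of at least 5 and no aNPC or lA peak within 5 kb, up to 5 per gene list by −log10 q, 3 of the 17 genes tied at 3 members (the first by symbol), those at the edge of the 1-kb window and the 4 members beside the widest shared peaks, which are 3 peaks as 2 of the members share one. Listed symbols absent from the annotation were matched through RefSeq synonyms. The members, lists and named genes were chosen with earlier results of these data known. RNA-seq, with 8 libraries of unclear labels among the 51 samples, and the siRNA samples were not analysed here. Computations used Python 3.11.15, pandas 2.3.3, NumPy 2.4.6, SciPy 1.17.1 and matplotlib 3.10.9.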

Additional observations from a re-analysis of the deposited data

How the results depend on the processing

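Each of 13 results was recomputed under other settings, and of these values 113 kept their direction and side of the threshold or stayed within the limits of a count, 17 reversed, 12 moved, 7 lost their call and 7 gained one. No paired analysis was possible because the authors merged the replicates before calling peaks, and for the same reason no replicate could be left out. With promoters taken from 1 kb upstream to 100 bp downstream, 730 eA-only promoter peaks at 696 genes were left. With all 3 lists limited to H3K27ac peaks of at least 196 bp, a setting chosen after seeing the data, 1045 eA peaks met the rule. Some of these were not among the 1578, because narrow aNPC peaks were dropped too. The share beside a shared peak was 30.9% with a gap of 500 bp, 37.8% with 2 kb, 31.6% without narrow peaks and 21.1% with aNPC and lA peaks extended by 200 bp, which absorbs the closest pieces. The share of marked genes with an aNPC and an lA peak in the same window was 41.6% with aNPC and lA peaks limited to a −log10 q from 5 up, 41.4% when the summit decided overlap, 23.9% with extended peaks, 33.5% without narrow peaks and 35.4% in a window of 500 bp. The differences in H3K4me1 of eA-only promoter peaks between lists lost their call from aNPC to eA in the window ending 100 bp downstream (−2.60 points, exact McNemar test, adjusted p = 0.0565) and from eA to lA among peaks 500 bp to 1 kb from the start site (−1.92 points). The lower share beside a shared peak kept its call under every setting run.

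Against other eA promoter peaks, the difference in aNPC was −2.35 points with extended peaks, −1.26 without narrow peaks and 28.1 by summit. In eA it was −1.37 with aNPC and lA peaks limited in that way, −1.12 when the summit decided overlap, 0.15 with extended peaks, −2.23 with chromosomes X and Y, 0.12 without narrow peaks and 29.0 by summit. In lA it was −5.75 in the window ending 100 bp downstream, past the threshold, 0.63 with aNPC and lA peaks limited to that −log10 q, 0.31 when the summit decided overlap, 1.27 with extended peaks, 1.74 without narrow peaks and 30.6 by summit. Against aNPC-only peaks the difference was −0.87 in that window, −0.22 with eA peaks and −0.55 with aNPC and lA peaks limited to that −log10 q, −0.62 when the summit decided overlap, −0.12 with H3K4me1 peaks of that −log10 q, −2.0 with H3K4me1 lists of equal length and −6.78 from 500 bp to 1 kb (exact Fisher test, adjusted p = 0.0381). Against lA-only peaks it was −6.12, −7.28, −4.33 and −5.25 under the first 4 of these settings, −5.91 with H3K27ac lists of equal length and −8.85 from 500 bp to 1 kb, each past the threshold, and 1.15 with H3K4me1 lists of equal length. Apart from what these settings do by construction, the cause was not tested.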
